A study of Homo sapiens with 15 samples.

Results

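The histone genes of the A375 melanoma cell line were taken as the 58 gene symbols of the old histone nomenclature in the deposited files, out of 17360 symbols in all. Of these, 47 carry symbols of the replication-dependent clusters (beginning HIST1H to HIST4H) and 11 are variant or replacement histone genes (H2AFJ, H2AFV, H2AFX, H2AFY, H2AFY2, H2AFZ, H3F3A, H3F3B, H3F3C, H1F0 and H1FX). Of the 47, 6 are annotated as pseudogenes: HIST1H1PS1, HIST2H2BA, HIST2H2BB, HIST2H2BC, HIST2H2BD and HIST2H3DP1. They are kept in the sums and level medians below where listed, and of them HIST2H2BC alone was tested. HIST2H2BA, HIST2H2BB, HIST2H3DP1 and HIST2H3PS2 lie elsewhere on chromosome 1 than the other HIST2 members. RNA sequencing had been done on 15 libraries of A375, an established human line with mutant BRAF, in 5 groups of 3. In a first experiment, cells overexpressing VAV1, a guanine nucleotide exchange factor for RAC1 and its relatives, were given saracatinib, an inhibitor of SRC family kinases, or vehicle, and cells with an empty vector were given vehicle. In a second experiment, untreated cells carrying RAC1P29S, an activated form of the GTPase RAC1 found in melanoma, were set against untreated cells with an empty vector. The labels state no dose, no time, no promoter and no clone, and no empty-vector cells received saracatinib, so the effect of the drug was measured in VAV1 cells alone. The samples are described as biological triplicates without mention of separate transductions, so the p-values speak to the spread among these samples only.

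Histones package DNA into nucleosomes, which hold a core of H2A, H2B, H3 and H4, with linker histone H1 at the DNA between them. The replication-dependent genes lie in clusters, lack introns as a rule and are transcribed in S phase, when new DNA has to be packaged. Their mRNAs usually end just after a short stem-loop that is bound by SLBP, in place of a poly(A) tail. Variant genes such as H2AFZ and H3F3A are transcribed throughout the cell cycle, have introns in most cases and give polyadenylated mRNAs, and their proteins are put into chromatin by dedicated chaperones. Some replication-dependent genes can also make polyadenylated mRNA, by using a signal beyond the stem-loop, which is known from differentiating and non-dividing cells. The labels name a TruSeq preparation of total RNA without saying whether poly(A) RNA was selected, and a selection would leave out mRNAs without a tail.

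The stem-loops of 5 replication-dependent genes described below, and of the variant gene that holds one, are shown because they mark the tail-less end of a histone mRNA. Each window is 28 bases of a GENCODE 29 transcript, on GRCh38, with the stem-loop in capitals.
HIST1H2AC (chr6:26124663-26124690, plus strand): cccaaaGGCTCTTTTCAGAGCCccccta
HIST1H2BD (chr6:26158581-26158608, plus strand): cccaaaGGCTCTTTTAAGAGCCacgcat
HIST2H2BE (chr1:149886182-149886209, minus strand): tccaaaGGCTCTTTTCAGAGCCacccac
HIST2H2AA4 (chr1:149851568-149851595, plus strand): tcaaaaGGCTCTTTTCAGAGCCacccac
HIST2H4A (chr1:149833026-149833053, plus strand): cccaaaGGCCCTTTTTAGGGCCgaccac
H2AFX (chr11:119094892-119094919, minus strand): cacaaaGGCCCTTTTAAGGGCCaccacc
The letters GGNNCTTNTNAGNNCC, searched on the transcript strand, were found in 31 of the 47 replication-dependent genes. They were found in 31 of the 39 with an annotated transcript beyond the coding sequence and in none of the 8 annotated by coding sequence alone, which include HIST1H1C and HIST1H2BK. Among the 11 variants, H2AFX alone held a match, and of all 58721 annotated genes 0.315% did. The form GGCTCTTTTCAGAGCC was the commonest, in 16 of the 31 genes. In 25 of the 31 genes an annotated transcript ran over 100 bases past the stem-loop. In HIST2H2BE it ran 1729 bases past, in HIST1H2AC up to 1128 bases, in H2AFX up to 1044 bases and in HIST2H2AA4 35 bases. HIST1H2BD has 2 annotated transcripts, of which the one with the stem-loop ends 39 bases after it and the spliced one lacks it.

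The promoters of 3 of these genes are shown because the genes rose in at least 1 comparison each and their windows hold the elements best known from histone promoters. Each is the 200 bases before the start in RefSeq, build GRCh38.p14, with the TATA box (TATAAA), the CCAAT box and the octamer (ATTTGCAT) in capitals wherever either strand holds the letters.
HIST1H2AC (chr6:26123972-26124171, plus strand): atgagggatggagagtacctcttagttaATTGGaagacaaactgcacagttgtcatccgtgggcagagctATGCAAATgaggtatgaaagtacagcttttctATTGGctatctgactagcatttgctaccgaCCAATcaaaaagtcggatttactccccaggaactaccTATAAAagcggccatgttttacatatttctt
HIST1H2BK (chr6:27146859-27147058, minus strand): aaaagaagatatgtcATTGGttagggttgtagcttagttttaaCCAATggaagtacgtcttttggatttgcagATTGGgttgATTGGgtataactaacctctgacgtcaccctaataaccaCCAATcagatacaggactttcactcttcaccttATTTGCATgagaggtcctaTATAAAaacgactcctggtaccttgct
HIST2H2BE (chr1:149886683-149886882, minus strand): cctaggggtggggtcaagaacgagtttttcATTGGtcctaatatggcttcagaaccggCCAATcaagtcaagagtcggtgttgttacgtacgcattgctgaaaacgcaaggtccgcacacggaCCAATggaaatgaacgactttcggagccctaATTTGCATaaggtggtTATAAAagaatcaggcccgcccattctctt
A RefSeq window of 250 bases before and 50 after the start was matched for 44 of the 58 members. TATAAA was in 22 of 35 replication-dependent windows (62.9%), in 4 of 9 variant windows (44.4%) and in 11.5% of all 35116 windows. CCAAT was in 29 of the 35 (82.9%), in 6 of the 9 (66.7%) and in 34.6% of all. The octamer, the letters that POU2F1 (Oct-1) is known to bind in H2B promoters, was in 11 of the 35 (31.4%), in 1 of the 9 (11.1%) and in 1.77% of all. These matches describe the letters in the windows and were not tested as binding sites.

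Levels are normalized counts, obtained by undoing the deposited log2(normalized count + 1), and the reads behind them are not known. The libraries summed to between 14443918 and 16262759 normalized counts, and libraries of a group correlated across genes at 0.981 to 0.987. The transgenes went with the titles. VAV1 lay at 14.12 ± 0.03 on the log2 scale in VAV1 cells with saracatinib, 13.91 ± 0.04 in VAV1 cells with vehicle and 2.22 ± 0.30 in empty-vector cells with vehicle (SD, n = 3 each). RAC1 lay at 14.93 ± 0.03 in the RAC1P29S cells and 11.88 ± 0.02 in their controls (SD, n = 3 each), although the genotype field of the RAC1P29S samples reads empty vector. A value per symbol does not separate transgene from endogenous mRNA. SOX10, MITF and S100B, which mark the melanocyte lineage, were present in every library, with lowest normalized counts of 1748, 308 and 53.2. The pigment genes were low or not listed, PMEL reaching 43.8, TYRP1 22.7, MLANA 20.9, DCT 8.49 and TYR 5.41. PTPRC, which marks blood cells, reached 21.5, and EPCAM, which marks epithelial cells, was not listed. Marker sums moved with the groups. The melanocyte genes summed to 3421 ± 81.7 normalized counts in VAV1 cells with saracatinib, 2973 ± 74.9 in VAV1 cells with vehicle and 8468 ± 264 in empty-vector cells with vehicle, and to 5305 ± 184 in RAC1P29S cells and 10148 ± 449 in their controls (SD, n = 3 each). CDH1, KRT18 and KRT8, of epithelial cells, summed to 8138, 13259 and 6242 in the first 3 of these groups and to 6427 and 3176 in the other 2, nearly all of it keratin, as CDH1 was at most 6.79. COL1A1, COL1A2, PDGFRB and LUM, of fibroblasts, summed to 333 ± 29.6 in VAV1 cells with saracatinib, 419 ± 44.4 in VAV1 cells with vehicle and 376 ± 35.2 in empty-vector cells with vehicle. Without COL1A2, which was not listed there, they summed to 212 ± 28.0 in RAC1P29S cells and 138 ± 43.9 in their controls. PECAM1, CDH5 and VWF, of endothelium, summed to 58.6 ± 21.3, 31.3 ± 14.6 and 30.1 ± 3.42 in the 3 groups of the first experiment, in the same order, and to 21.4 ± 3.82 in RAC1P29S cells and 20.7 ± 2.11 in their controls. The part of these shifts in the histone values was not tested.

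The 2 classes lay at opposite ends of the expression range as measured. The labels do not say whether poly(A) RNA was selected, and a selection would leave out replication-dependent mRNAs without a tail. Their level in the cells is thus not known from these values. The first experiment listed 40 replication-dependent members, with a median of 9.83 normalized counts, and 10 variants, with a median of 3095. The median over all 16768 genes was 264, so the class medians stood at the 16.2 and the 94.3 percentile. The second experiment gave 9.16 for 44 replication-dependent members and 2512 for 11 variants, against 283 for all 16295 genes. Only HIST1H1C (160 normalized counts) and HIST3H2A (103) averaged 100 or more among replication-dependent members of the first experiment. They were followed by HIST2H2BF (95.8), HIST1H2AC (88.3), HIST1H2BK (84.5), HIST2H4A (79.4), HIST2H4B (48.0) and HIST1H4I (45.8). In the second experiment HIST3H2A led with 104, ahead of HIST1H1C (97.6), HIST1H2BK (83.4), HIST1H2AC (81.2), HIST2H2BF (80.7), HIST2H4A (68.0), HIST1H4I (36.6) and HIST1H2BD (34.3). H3F3C, a primate gene known from testis, was the exception among variants. It was listed in the second experiment alone, at 8.95, 6.53 and 9.25 normalized counts in RAC1P29S cells and 11.4, 9.39 and 5.50 in empty-vector cells.

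Levels per kilobase of merged exons, with the same limit on mRNAs without a tail, put the variants first. H2AFZ, which encodes the variant H2A.Z of promoters and enhancers, led with 3587 normalized counts per kb. H3F3A (1785), H1F0 (1704), H3F3B (1339), H2AFX (895), H1FX (855) and H2AFV (463) came next. HIST1H1C, a linker histone gene, followed with 249 per kb, then H2AFY (232), which encodes macroH2A, and HIST1H2BK (222). These ranks depend on the annotated lengths, which are 17730 bases for H2AFY, 642 for HIST1H1C and 381 for HIST1H2BK. HIST1H1C and HIST1H2BK are annotated by coding sequence alone. Not divided by length, H2AFY averaged 4107 normalized counts, HIST1H1C 160 and HIST1H2BK 84.5. H2AFY2, the second macroH2A gene, had 78.4 per kb and H2AFJ 36.5 per kb.

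**Figure D1:**
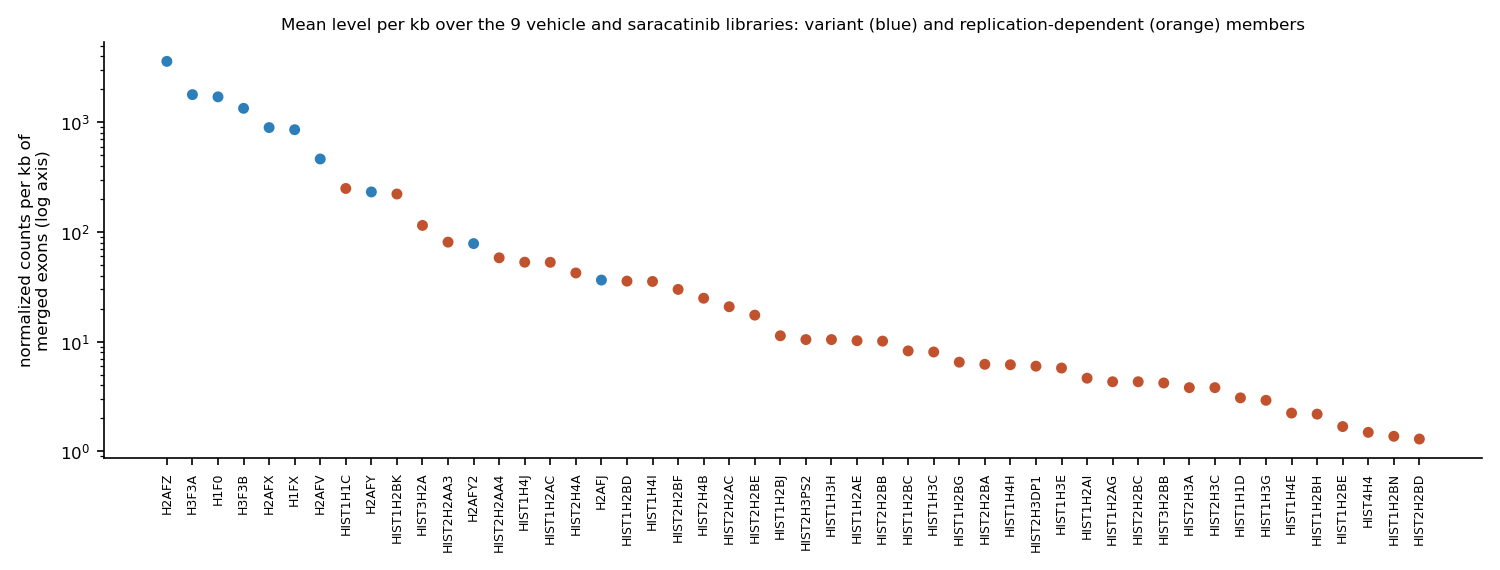
Mean level per kilobase of merged exons (log axis) of each member over the 9 vehicle and saracatinib libraries, one point per gene. Of the 10 variants, 7 lie above every replication-dependent member, and HIST1H1C leads the replication-dependent members with 249 normalized counts per kb. The order depends on the annotated lengths, which for HIST1H1C cover the coding sequence alone. Whether mRNAs without a poly(A) tail were captured is not known.

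The limma test was run on genes that reached 10 normalized counts in 3 or more libraries. In the first experiment 24 of the 40 listed replication-dependent members passed this filter and all 10 variants did. In the second 22 of 44 and 10 of 11 passed, H3F3C being the variant left out. HIST2H3A and HIST2H3C passed through the saracatinib libraries alone, so that a difference there was built into their being tested. Where saracatinib is compared, the counts and medians are first given without them, and their values are given with no test. A fold change here is taken between means of log2(normalized count + 1), so it is too small for genes of low level. Groups of 3 libraries often do not overlap. For VAV1 against empty vector, 28.2% of tested genes lay higher without overlap and 24.5% lower. These shares were 24.1% and 25.3% for saracatinib against vehicle. They were 27.2% and 25.6% for saracatinib against empty vector, and 22.6% and 22.4% for RAC1P29S.

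Near-identical copies limit what can be said of single HIST2 genes. In GENCODE 29, 16 of the 47 replication-dependent members had under 50% of their 31-base words to themselves and 7 had under 5%, against none of the 11 variants under 50%. HIST2H3A and HIST2H3C share an identical transcript and carried identical values in every library. HIST2H4A and HIST2H4B share a whole transcript, and the transcript of HIST2H2AA3 is contained in that of HIST2H2AA4. HIST2H2AA4 was at 121, 70.6 and 58.1 normalized counts in VAV1 cells with saracatinib, at 24.3, 21.2 and 0 in VAV1 cells with vehicle, and listed at 0 in all 3 empty-vector libraries with vehicle. HIST2H2AA3 was at 17.6, 42.0 and 85.5 with saracatinib, at 34.5, 34.3 and 70.7 in VAV1 cells with vehicle, and at 42.5, 41.4 and 30.9 in empty-vector cells with vehicle. The split between such copies is not known, so the 3 pairs are described by their sums, a choice made after seeing the data.

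**Figure D2:**
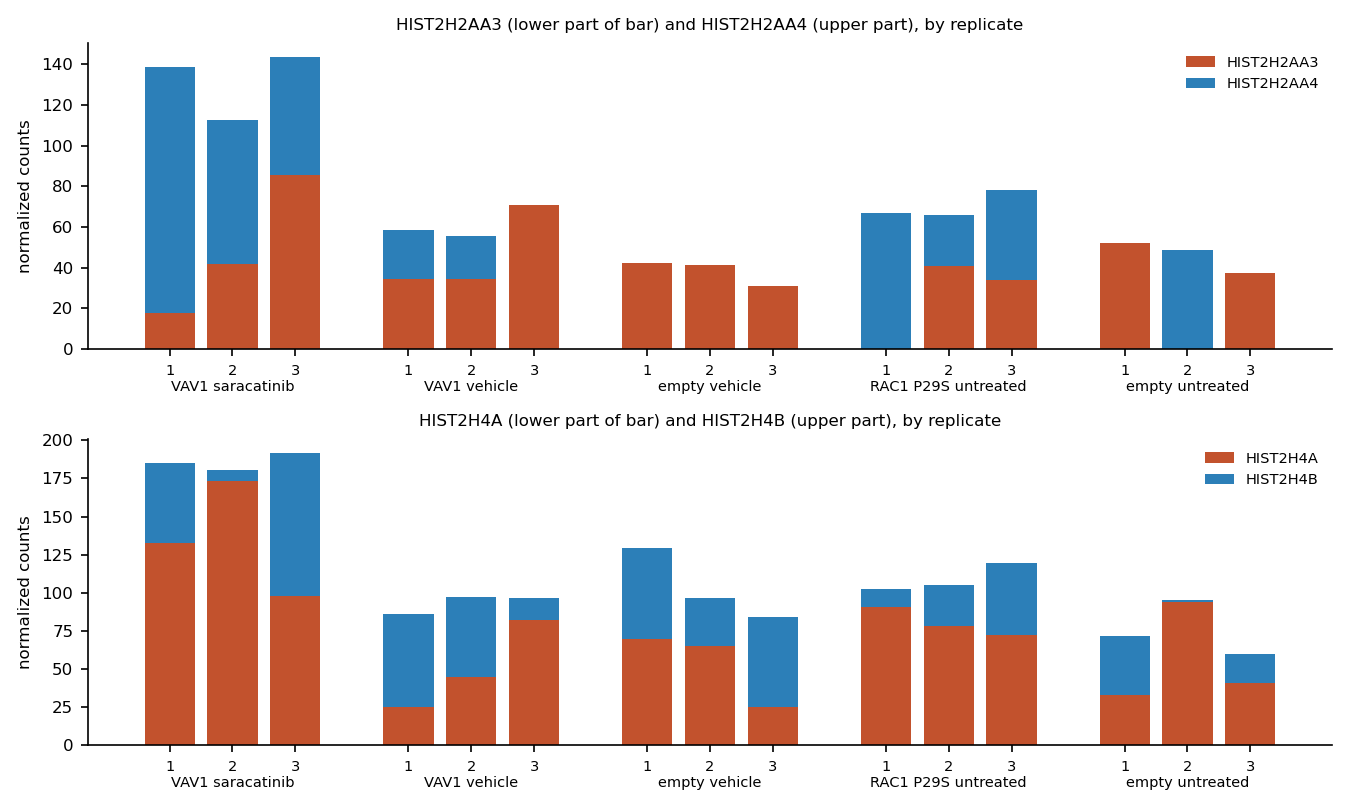
Normalized counts of HIST2H2AA3 and HIST2H2AA4 (top) and of HIST2H4A and HIST2H4B (bottom) in each library, stacked, with replicates 1 to 3 of each group. The split between copies varies within groups, down to 0 for a copy, while the totals of HIST2H2AA3 and HIST2H2AA4 are 113 to 144 in VAV1 cells with saracatinib, 55.5 to 70.7 in VAV1 cells with vehicle and 30.9 to 42.5 in empty-vector cells with vehicle.

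VAV1 cells were set against empty-vector cells, both with vehicle, to ask what VAV1 did. Of the 24 tested replication-dependent members, 6 were higher and none lower at an adjusted p under 0.05, and 8 had an unadjusted p under 0.05. Among all 14410 genes tested 43.7% passed in either direction, 23.6% of them higher and 20.1% lower as shares of all, so 6 of 24 is close to the share of genes that were higher. The median log2 fold change was 0.48 over the 24 members, against 0.02 over all genes tested. It was 0.29 over the 13 members at 10 or more normalized counts in all 6 libraries compared, of which 4 were higher. The 6 were HIST1H1C, HIST1H2AC, HIST1H2BK, HIST1H3H, HIST1H4I and HIST2H2AA4. The first 5 of them belong to the large cluster on chromosome 6. HIST1H3H and HIST2H2AA4 had no empty-vector library with vehicle at 10 normalized counts. They passed the filter through VAV1 libraries, so a difference was built into their being tested.

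HIST1H2AC (chromosome 6, 26124145 to 26139116), an H2A gene, had 108, 87.1 and 89.3 normalized counts in VAV1 cells, against 55.6, 58.1 and 50.5 in empty-vector cells. Every VAV1 library lay above every empty-vector library, with a log2 fold change of 0.78 ± 0.16 (SE, limma adjusted p = 0.00152). HIST1H2BK (27146418 to 27146798), an H2B gene, had 92.4, 96.1 and 104 in VAV1 cells, against 57.4, 54.5 and 58.0 in empty-vector cells. Its groups did not overlap either (0.77 ± 0.15, limma adjusted p = 0.00102), and 13.7% of its 31-base words are its own, so reads of other H2B genes can enter its value. HIST1H1C (26055787 to 26056428), the linker histone gene, had 188, 161 and 186 in VAV1 cells, against 140, 119 and 123 in empty-vector cells. These also stood apart, by 0.48 ± 0.12 (limma adjusted p = 0.00615). The 3 calls held when any 1 library was left out.

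The H3 gene HIST1H3H was at 14.0, 22.1 and 14.1 in VAV1 cells and 4.25, 7.66 and 7.28 in empty-vector cells, with a log2 fold change of 1.27 ± 0.38 (limma adjusted p = 0.0149). Its groups did not overlap, but a difference was built into its being tested, as stated above. The call was also lost without VAV1 vehicle replicate 2 (limma adjusted p = 0.0670) or empty-vector vehicle replicate 1 (0.0559). The H4 gene HIST1H4I was at 52.3, 52.3 and 58.4 in VAV1 cells and 21.2, 44.9 and 29.1 in empty-vector cells, with a log2 fold change of 0.82 ± 0.27 (limma adjusted p = 0.0250). This call was lost without VAV1 replicate 1 or 3 or empty-vector replicate 1 or 3, with limma adjusted p between 0.0523 and 0.107. The summed copies HIST2H2AA3 and HIST2H2AA4 had 58.8, 55.5 and 70.7 in VAV1 cells, against 42.5, 41.4 and 30.9 in empty-vector cells. Their log2 fold change was 0.68 ± 0.19 (limma adjusted p = 0.0112). For HIST2H2AA4 alone the call was lost in 5 of the 9 fits without 1 library, those without VAV1 replicate 1 or 2 or any empty-vector replicate (adjusted p between 0.0750 and 0.104). The HIST2 H2B gene HIST2H2BE, at 20.5, 25.3 and 26.2 in VAV1 cells and 23.4, 15.3 and 20.0 in empty-vector cells, overlapped between the groups (0.29 ± 0.24, limma adjusted p = 0.354).

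Among the 10 variants, 3 were higher and 1 lower with VAV1, and the median log2 fold change was 0.03. Of all genes tested 23.6% were higher and 20.1% lower, so 3 of 10 is close to the share of genes that were higher. H2AFZ had 10490, 9816 and 10636 normalized counts in VAV1 cells, against 6761, 7174 and 6685 in empty-vector cells. That was the largest change of a variant in this comparison, 0.59 ± 0.05 (limma adjusted p = 2.82e-07). H3F3B, one of the 2 genes for the replacement H3 protein, had 9315, 8985 and 9203 in VAV1 cells, against 6943, 7487 and 7779 in empty-vector cells (0.31 ± 0.04, limma adjusted p = 7.45e-05). H2AFY had 4536, 4567 and 4655 in VAV1 cells, against 3890, 3820 and 3695 in empty-vector cells (0.27 ± 0.04, limma adjusted p = 0.000143). The groups did not overlap for these 3 genes.

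H3F3A, which encodes the same protein as H3F3B, had 5537, 5041 and 5453 in VAV1 cells, against 5902, 5757 and 5698 in empty-vector cells. Its log2 fold change was -0.12 ± 0.04 (limma adjusted p = 0.0439), and the call was lost in 8 of the 9 fits without 1 library, with adjusted p up to 0.167 without VAV1 vehicle replicate 2. It held without VAV1 vehicle replicate 1. The other 6 variants did not pass. H2AFX, whose protein is phosphorylated at DNA breaks, had 1664, 1595 and 1633 in VAV1 cells and 1578, 1279 and 1453 in empty-vector cells (0.19 ± 0.09, limma adjusted p = 0.0910), and passed without empty-vector replicate 1 (adjusted p = 0.0336).

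**Figure D3:**
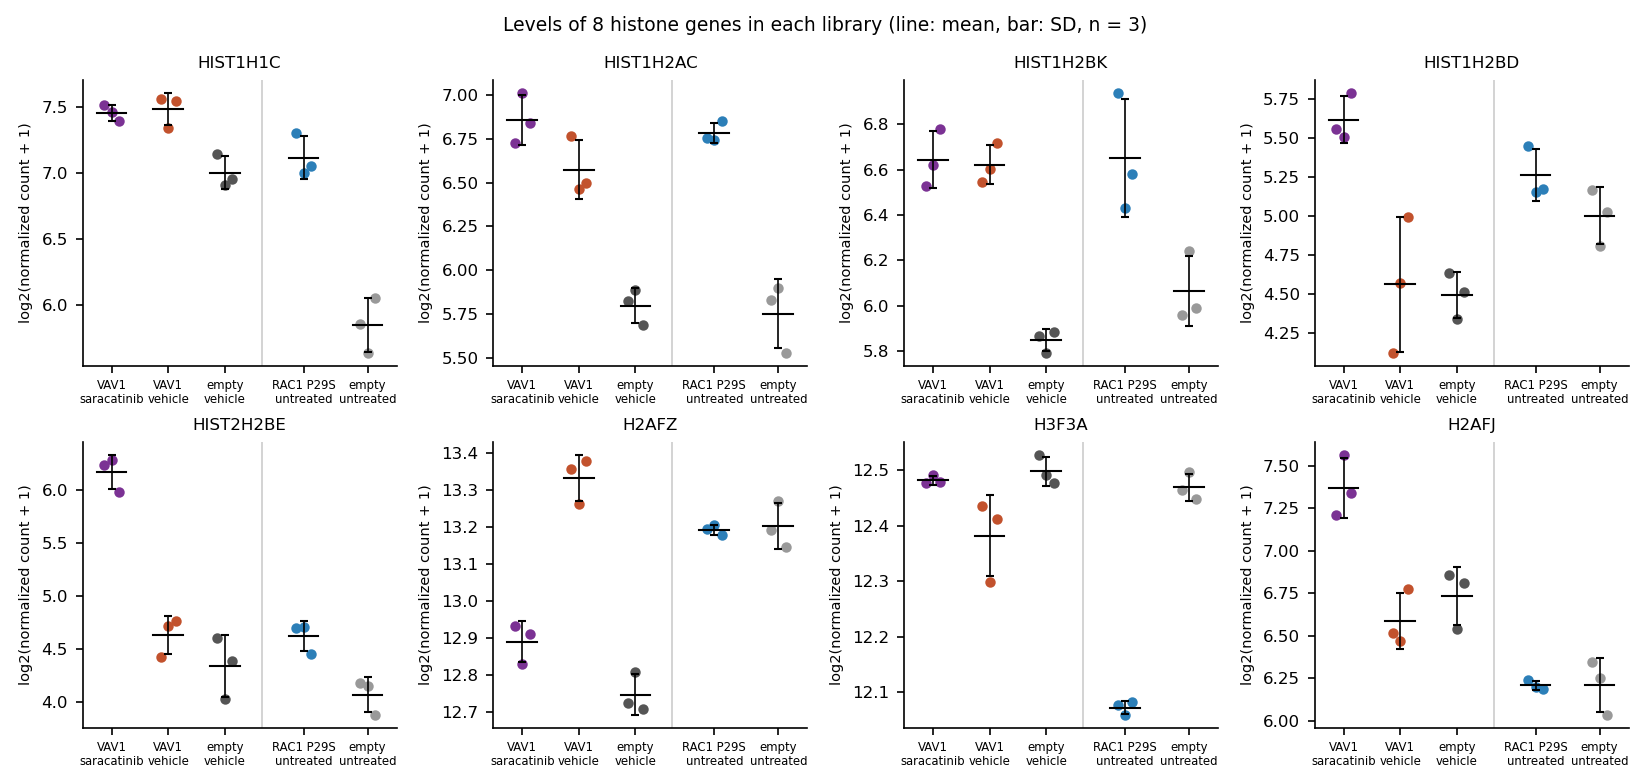
Levels, log2(normalized count + 1), of 8 histone genes in each library, with the mean and SD of 3 libraries per group. HIST1H1C, HIST1H2AC and HIST1H2BK lie higher in VAV1 and RAC1P29S cells than in their empty-vector controls, HIST1H2BD and HIST2H2BE are highest with saracatinib, and H2AFZ is highest in VAV1 cells with vehicle.

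Saracatinib was compared with vehicle in VAV1 cells to ask what SRC family inhibition changed. Of 22 replication-dependent members 4 were higher and none lower, with a median of 0.25 against -0.0069 over all genes. The median was 0.21 over the 13 members at 10 or more normalized counts in all 6 libraries compared, of which 3 were higher. With HIST2H3A and HIST2H3C counted, 6 of 24 were higher. The vehicle libraries of VAV1 cells are those of the comparison above, so the 2 comparisons are not independent. Of all 14410 genes 37.3% passed, with 18.3% higher and 19.1% lower. Thus 4 of 22 is close to the share of genes that were higher. The 4 were HIST2H2AA4, HIST2H2BE, HIST2H4A and HIST1H2BD, of which HIST1H2BD lies on chromosome 6 and the others in the HIST2 cluster of chromosome 1. None of HIST1H1C, HIST1H2AC, HIST1H2BK, HIST1H3H and HIST1H4I passed here, with log2 fold changes between -0.10 and 0.28 and limma adjusted p of at least 0.189.

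HIST2H2BE (chromosome 1, 149884459 to 149886652) had 74.6, 77.1 and 62.5 normalized counts with saracatinib, against 20.5, 25.3 and 26.2 with vehicle. The groups were far apart, by 1.53 ± 0.24 or 2.90-fold (SE, limma adjusted p = 0.000239). HIST1H2BD (chromosome 6, 26158146 to 26171349), an H2B gene, had 46.1, 44.4 and 54.2 with saracatinib, against 16.5, 22.8 and 30.8 with vehicle. It did not overlap between the groups (1.05 ± 0.27, limma adjusted p = 0.00716). Both calls held when any 1 library was left out.

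The summed H2A copies HIST2H2AA3 and HIST2H2AA4 had 139, 113 and 144 with saracatinib, against 58.8, 55.5 and 70.7 with vehicle (1.08 ± 0.19, limma adjusted p = 0.000632). The summed H4 copies HIST2H4A and HIST2H4B had 185, 181 and 192 with saracatinib, against 86.1, 97.0 and 96.6 with vehicle (0.99 ± 0.16, limma adjusted p = 0.000301). The summed H3 copies HIST2H3A and HIST2H3C had 22.1, 23.3 and 26.3 with saracatinib, against 7.47, 6.54 and 12.1 with vehicle, given with no test since these genes entered through the saracatinib libraries. The H2A and H4 sums did not overlap between the groups. Taken one by one, the copies gave less stable calls. HIST2H4A lost its call without saracatinib replicate 1 or 2 or vehicle replicate 1 or 2 (adjusted p between 0.0598 and 0.0816). HIST2H2AA4 lost its call without saracatinib replicate 1 (0.0671). The count of 6 of 24 fell to 2 without saracatinib replicate 1 and to 3 without vehicle replicate 1 or 2. Without saracatinib replicate 3, 1 replication-dependent member was lower.

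The variants were mostly lower with saracatinib, 6 of 10 against 1 higher, with a median of -0.23. Of all genes tested 19.1% were lower and 18.3% higher. H2AFZ had 7812, 7270 and 7698 with saracatinib, against 10490, 9816 and 10636 with vehicle (-0.44 ± 0.05, limma adjusted p = 6.83e-06). H1FX, a linker histone variant, had 972, 1200 and 1032 with saracatinib, against 1368, 1428 and 1446 with vehicle (-0.41 ± 0.08, limma adjusted p = 0.00138). H2AFX had 1129, 1400 and 1263 with saracatinib, against 1664, 1595 and 1633 with vehicle (-0.37 ± 0.09, limma adjusted p = 0.00380). Each of these 3 was lower in every saracatinib library than in any vehicle library.

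H2AFV, the second H2A.Z gene, had 2025, 2024 and 1893 with saracatinib, against 2417, 2265 and 2309 with vehicle, a log2 fold change of -0.23 ± 0.05. H2AFY stood at -0.22 ± 0.04 and H3F3B at -0.18 ± 0.04, and these 3 had limma adjusted p of 0.00196, 0.000881 and 0.00477 in that order. H2AFJ was the variant that rose. It is known from senescent human fibroblasts, where its protein builds up, and it had 147, 188 and 161 with saracatinib, against 90.6, 87.7 and 109 with vehicle (0.78 ± 0.15, limma adjusted p = 0.00135). The saracatinib libraries did not overlap the vehicle libraries. H1F0, known from differentiated cells, had 3980, 4012 and 3732 with saracatinib and 4177, 4040 and 4037 with vehicle. It did not pass, at -0.06 ± 0.04 (limma adjusted p = 0.262), nor did H2AFY2 (-0.28 ± 0.14, 0.129) and H3F3A (0.10 ± 0.04, 0.0874).

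**Figure D4:**
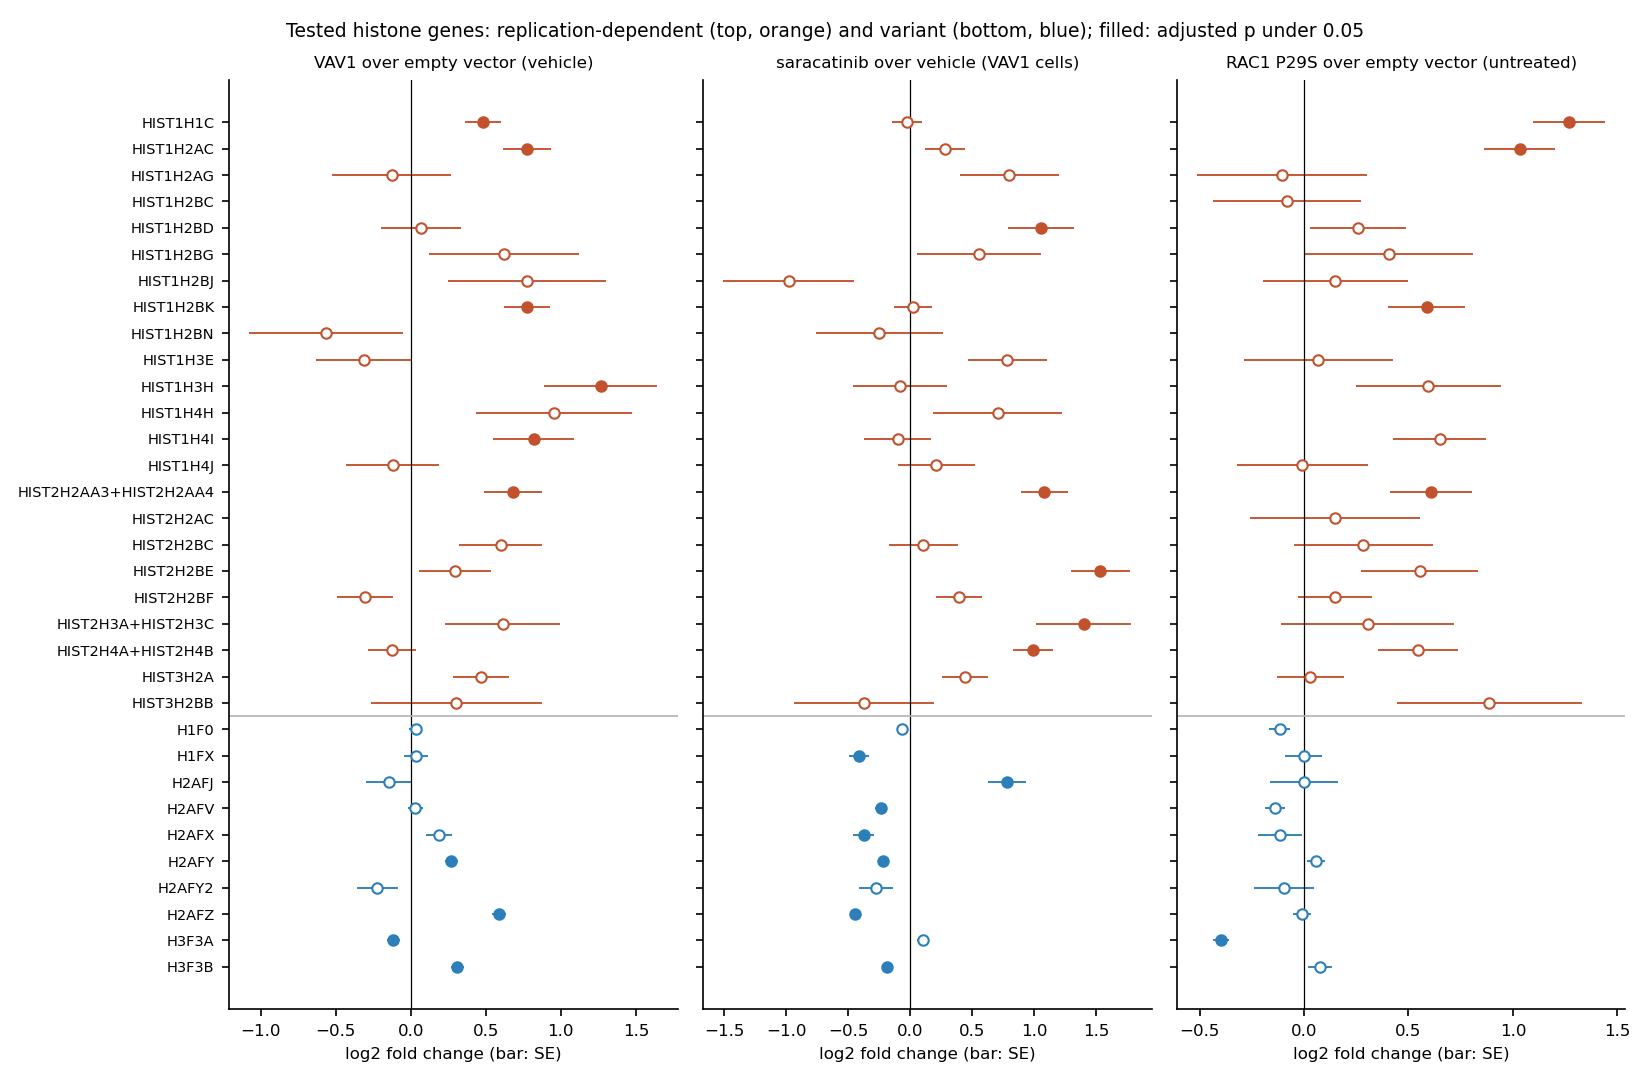
Log2 fold changes with SE of the tested members for VAV1 over empty vector, saracatinib over vehicle and RAC1P29S over empty vector, with replication-dependent members above the line and variants below, and the 3 pairs of copies summed. Filled points had a limma adjusted p under 0.05, and the pair HIST2H3A and HIST2H3C entered the saracatinib comparison through the saracatinib libraries alone. Called replication-dependent members lie to the right of 0 in all 3 panels, and 6 of the 7 called variants under saracatinib lie to the left.

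Set against the empty vector with vehicle, VAV1 cells with saracatinib had 11 of 22 replication-dependent members higher and none lower, or 13 of 24 with HIST2H3A and HIST2H3C. Among all 14410 genes 43.4% passed, 22.4% higher and 21.0% lower. The median was 0.71 over the 22, against 0.0038 over all genes. This comparison shares libraries with both of those above and is not independent of them, and it cannot separate VAV1 from the drug. HIST2H2BE, at 74.6, 77.1 and 62.5 in VAV1 cells with saracatinib against 23.4, 15.3 and 20.0 in empty-vector cells, was 3.55-fold higher (1.83 ± 0.24, limma adjusted p = 4.64e-05). HIST1H2AC, at 105, 128 and 113 in VAV1 cells with saracatinib against 55.6, 58.1 and 50.5 in empty-vector cells, was 2.08-fold higher (1.06 ± 0.16, limma adjusted p = 0.000147). Neither gene overlapped between the groups.

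HIST3H2A, the H2A gene of a small cluster elsewhere on chromosome 1, had 119, 154 and 135 in VAV1 cells with saracatinib, against 93.5, 66.7 and 58.2 in empty-vector cells with vehicle. The groups stood apart by 0.91 ± 0.19 (limma adjusted p = 0.00145). HIST1H4H had 18.7, 19.1 and 22.1 with VAV1 and saracatinib, against 4.24, 10.9 and 3.63 with the empty vector (1.66 ± 0.52, limma adjusted p = 0.0199), and this call was lost without saracatinib replicate 3 (0.0574) or empty-vector replicate 1 (0.0627) or 3 (0.0715). HIST1H2BD rose by 1.12 ± 0.27, HIST1H2BK by 0.80 ± 0.15 and HIST1H1C by 0.45 ± 0.12, with limma adjusted p of 0.00410, 0.00087 and 0.00894 in that order. HIST1H3H, where a difference was built in, rose by 1.18 ± 0.38, and HIST1H4I rose by 0.72 ± 0.27. Both calls were lost without 1 of several libraries. For HIST1H3H these were saracatinib replicates 2 and 3 and empty-vector replicate 1 (limma adjusted p between 0.0506 and 0.0848). HIST1H4I overlapped between the groups, and for it they were all 9 libraries but saracatinib replicate 3 and empty-vector replicate 2 (limma adjusted p between 0.0571 and 0.182). The summed copies HIST2H2AA3 and HIST2H2AA4 were higher by 1.76 ± 0.19 and HIST2H4A and HIST2H4B by 0.86 ± 0.16, with limma adjusted p of 8.64e-06 and 0.000716. HIST2H3A and HIST2H3C together had 22.1, 23.3 and 26.3 in VAV1 cells with saracatinib and 4.25, 4.38 and 7.28 in empty-vector cells. The count of 13 of 24 fell to 8 without saracatinib replicate 2. Of 13 members with at least 10 normalized counts in all 6 libraries compared, 8 were higher.

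Of the 10 variants, 3 were higher and 3 lower in this comparison, with a median of -0.02. These counts are close to the shares of all genes tested, 22.4% higher and 21.0% lower. H2AFJ was higher by 0.64 ± 0.15 (limma adjusted p = 0.00462). H2AFY2, at 145, 105 and 136 in VAV1 cells with saracatinib and 178, 181 and 185 in empty-vector cells, was the lowest (-0.50 ± 0.14, limma adjusted p = 0.00919). H1FX (-0.38 ± 0.08) and H2AFV (-0.20 ± 0.05) were lower too, with limma adjusted p of 0.00217 and 0.00431. The calls on H2AFZ (0.14 ± 0.05, limma adjusted p = 0.0225) and H3F3B (0.13 ± 0.04, limma adjusted p = 0.0323) depended on single libraries. That on H2AFZ was lost without saracatinib replicate 1 or 3 or empty-vector replicate 1 or 3 (adjusted p between 0.0668 and 0.0873). That on H3F3B was lost without any 1 saracatinib replicate or empty-vector replicate 1 (adjusted p between 0.0661 and 0.144). The count of 3 higher fell to 1 without saracatinib replicate 1 or 3 or empty-vector replicate 1. H2AFX, at -0.18 ± 0.09 (limma adjusted p = 0.0980), passed without saracatinib replicate 2 (0.0291) or empty-vector replicate 2 (0.0225).

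RAC1P29S cells were compared with empty-vector cells, both untreated. Of 22 tested replication-dependent members 3 were higher and none lower, with 5 at an unadjusted p under 0.05, where 31.1% of all 14036 genes passed, 15.6% higher and 15.5% lower. The share of members higher is thus close to that of all genes. The median was 0.34 over the 22 members and -0.0043 over all genes. The 3 were HIST1H1C, HIST1H2AC and HIST1H2BK, all on chromosome 6. With the copies summed, 4 were higher, 1 of them of the HIST2 cluster on chromosome 1. HIST1H1C had 157, 127 and 131 normalized counts in RAC1P29S cells, against 56.9, 48.7 and 65.1 in empty-vector cells. It was 2.41-fold higher with no overlap (1.27 ± 0.17, limma adjusted p = 0.000302). HIST1H2AC had 107, 106 and 114 in RAC1P29S cells, against 55.9, 58.6 and 45.2 in empty-vector cells (1.03 ± 0.17, limma adjusted p = 0.00106), also without overlap.

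HIST1H2BK had 122, 85.4 and 94.7 in RAC1P29S cells, against 61.2, 74.6 and 62.6 in empty-vector cells (0.59 ± 0.18, limma adjusted p = 0.0343). Its groups did not overlap, but its call was lost without RAC1P29S replicate 1 (adjusted p = 0.137) or 3 (0.0711) or empty-vector replicate 1 (0.0861) or 3 (0.0807). The count of 3 rose to 5 without empty-vector replicate 2. HIST1H4I, at 39.3, 46.6 and 48.8 in RAC1P29S cells against 25.1, 32.4 and 27.5 in empty-vector cells, came close (0.65 ± 0.22, limma adjusted p = 0.0503). The summed copies HIST2H2AA3 and HIST2H2AA4, at 66.8, 66.1 and 78.4 in RAC1P29S cells against 52.3, 48.6 and 37.6 in empty-vector cells, were higher by 0.61 ± 0.20 (limma adjusted p = 0.0403). HIST2H4A and HIST2H4B together stood at 0.55 ± 0.19 (limma adjusted p = 0.0527), and HIST2H2BE, at 25.0, 25.2 and 21.0 in RAC1P29S cells against 17.1, 16.8 and 13.7 in empty-vector cells, at 0.55 ± 0.28 (limma adjusted p = 0.163).

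H3F3A was the called variant with RAC1P29S, 1 of 10 tested, where 15.6% of all genes were higher and 15.5% lower. H3F3A had 4319, 4267 and 4335 normalized counts in RAC1P29S cells, against 5648, 5778 and 5591 in empty-vector cells. Its log2 fold change was -0.40 ± 0.04 (limma adjusted p = 3.67e-05). The groups were far apart, and the call held when any 1 library was left out. H3F3B, the other gene for the same protein, had 13154, 11925 and 13301 in RAC1P29S cells and 12288, 12864 and 11307 in empty-vector cells, which overlapped (0.07 ± 0.06, limma adjusted p = 0.368). H2AFZ had 9362, 9437 and 9266 in RAC1P29S cells and 9345, 9882 and 9065 in empty-vector cells (-0.01 ± 0.04, limma adjusted p = 0.873). The median over the 10 tested variants was -0.05. H2AFV, at -0.14 ± 0.05, lay at the threshold (limma adjusted p = 0.0501), and H1F0 (-0.12 ± 0.05, limma adjusted p = 0.106) passed without empty-vector replicate 3 (0.0215).

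The effects of VAV1 and of RAC1P29S were then compared directly, each against its own empty vector. Over the 13810 genes tested, 15.8% differed, 8.14% in favour of VAV1 and 7.70% in favour of RAC1P29S. Of 20 replication-dependent members 1 differed, and of 10 variants 4 did. HIST1H1C rose less with VAV1 than with RAC1P29S, by -0.79 ± 0.19 on the log2 scale (SE, limma adjusted p = 0.0110). H2AFZ was raised more by VAV1, by 0.60 ± 0.06 (limma adjusted p = 5.84e-06). The differences were 0.28 ± 0.05 for H3F3A (limma adjusted p = 0.00219), 0.21 ± 0.06 for H2AFY (0.0158) and 0.24 ± 0.07 for H3F3B (0.0384). The call on H3F3B was lost in 6 of the 15 fits without 1 library (adjusted p between 0.0738 and 0.102). These were the fits without VAV1 vehicle replicate 1 or 3, vehicle empty-vector replicate 1, RAC1P29S replicate 2 or untreated empty-vector replicate 1 or 2. H1F0 passed without untreated empty-vector replicate 3 (adjusted p = 0.0307). For HIST1H2AC (-0.26 ± 0.22, limma adjusted p = 0.474) and HIST1H2BK (0.19 ± 0.22, limma adjusted p = 0.627) a difference of the effects was not detected, which does not show that they were equal. The 2 experiments differ in vehicle and in gene table.

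Summed over the cluster members, the levels followed the single genes. The sum over 40 replication-dependent members was 1384 ± 42.7 normalized counts in VAV1 cells with saracatinib, 1032 ± 40.0 in VAV1 cells with vehicle and 805 ± 58.2 in empty-vector cells with vehicle (SD, n = 3 each), with no overlap between any of these groups. In the second experiment the sum over 44 members was 1105 ± 68.6 in RAC1P29S cells and 809 ± 37.0 in empty-vector cells, again without overlap. No test was made of these sums, and in bulk RNA more expressing cells and more RNA per cell cannot be told apart. A change in the share of these mRNAs with a poly(A) tail was not tested. The labels do not state whether such RNA was selected. The HIST1 sum was 654 ± 43.9 with saracatinib, 591 ± 24.0 in VAV1 cells with vehicle and 399.6 ± 5.51 in empty-vector cells with vehicle. The HIST1 step was thus between VAV1 and empty vector (1.48-fold), while the saracatinib and vehicle libraries of VAV1 cells overlapped (1.11-fold). The HIST2 sum was 582 ± 28.4 with saracatinib, 327 ± 23.2 in VAV1 cells with vehicle and 319 ± 44.1 in empty-vector cells with vehicle. Here the step was between saracatinib and vehicle (1.78-fold), and VAV1 and empty-vector libraries overlapped (1.02-fold). RAC1P29S cells had 623 ± 65.5 for HIST1 against 418 ± 12.5 in empty-vector cells. They had 354.5 ± 9.77 for HIST2 against 277 ± 21.3 in empty-vector cells. Neither sum overlapped between these groups (1.49-fold for HIST1 and 1.28-fold for HIST2).

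The variant sum was 33833 ± 267 with saracatinib, 39123 ± 998 in VAV1 cells with vehicle and 33239 ± 148 in empty-vector cells with vehicle. It was lower with saracatinib than with vehicle in VAV1 cells (0.865-fold) and close to that of empty-vector cells (1.02-fold). RAC1P29S cells had 41914 ± 632 and their empty-vector cells 43260 ± 1874, which overlapped. The replication-dependent sum was 0.00948% of all normalized counts with saracatinib and 0.00555% in empty-vector cells with vehicle, and the variant sum was 0.232% with saracatinib and 0.229% in empty-vector cells with vehicle.

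**Figure D5:**
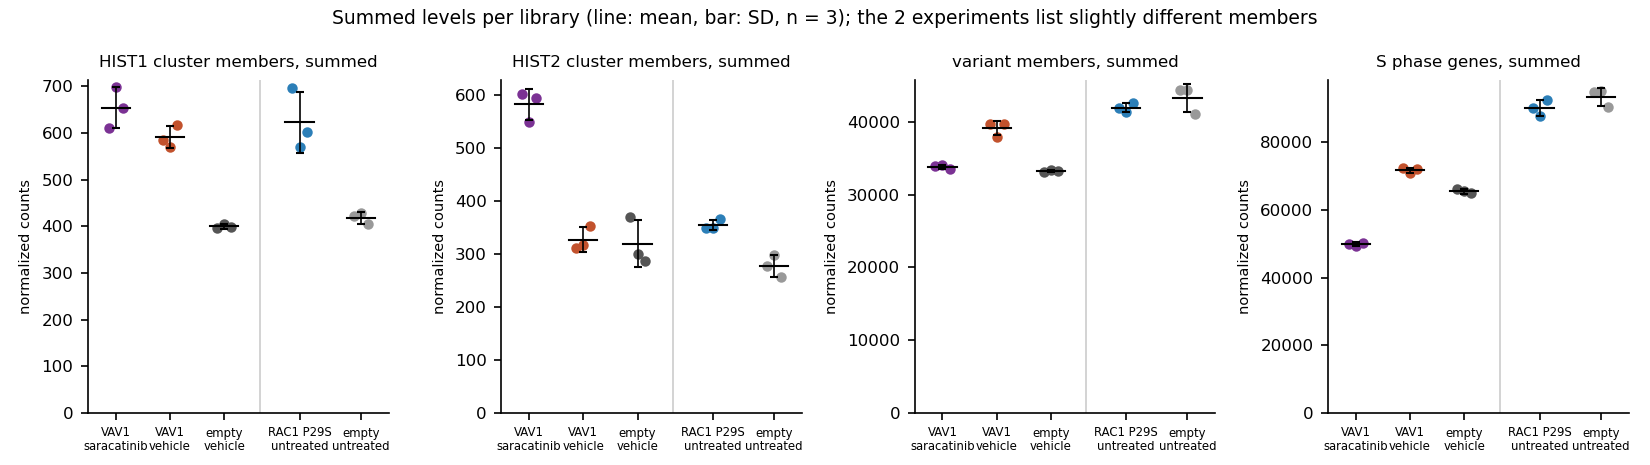
Summed normalized counts per library of HIST1 members, HIST2 members, variants and 30 S phase genes, with the mean and SD of 3 libraries per group. The HIST1 sum is 591 in VAV1 cells with vehicle against 399.6 in empty-vector cells, the HIST2 sum is 582 with saracatinib against 327 with vehicle, and the variant and S phase sums are lower with saracatinib than with vehicle.

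Genes that act with histones were described from 4 lists. For comparison, 23.6% of all tested genes were higher and 20.1% lower with VAV1. With saracatinib against vehicle these shares were 18.3% and 19.1%, and with RAC1P29S 15.6% and 15.5%. In S phase and E2F target genes, all 30 members were lower with saracatinib than with vehicle in VAV1 cells, with a median of -0.53. RRM2, a ribonucleotide reductase subunit, changed by -0.77 ± 0.04, UHRF1, a chromatin factor of DNA methylation, by -0.74 ± 0.05, and the helicase subunit MCM7 by -0.59 ± 0.04 (limma adjusted p of 2.15e-08, 4.79e-08 and 6.61e-08). The sum over these genes was 49836 ± 555 normalized counts with saracatinib and 71805 ± 727 with vehicle. The replication-dependent histone genes that were called there had all been higher, and the part of the cell cycle in the histone values was not tested. With VAV1 against empty vector 9 S phase genes were higher and 2 lower, and with RAC1P29S none was higher and 3 lower.

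In G2 and M phase genes, 27 of 30 were lower and none higher with saracatinib, 18 were higher and none lower with VAV1, and 4 were higher and 9 lower with RAC1P29S. Of 23 genes for histone transcription and 3-prime processing, 6 were lower and 1 higher with saracatinib. SLBP, the stem-loop binding protein, changed by -0.38 ± 0.05 (limma adjusted p = 6.83e-05), and UPF1, the RNA helicase of histone mRNA decay, by -0.50 ± 0.07 (limma adjusted p = 5.56e-05). With VAV1, 5 of the 23 were higher, close to the share of all genes (23.6%), and 2 lower. ERI1, an exonuclease that trims the stem-loop end, changed by 0.65 ± 0.10 and the cleavage factor gene CSTF2 by 0.45 ± 0.06 (limma adjusted p of 0.000136 and 7.75e-05). With RAC1P29S, 1 of the 23 was higher and 2 were lower. CCNE2, a cyclin that drives the histone transcription factor NPAT through its kinase, changed by -0.32 ± 0.07 (limma adjusted p = 0.00499).

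Of 26 genes for histone chaperones and exchange, 17 were lower and none higher with saracatinib. SSRP1, a subunit of the FACT complex, changed by -0.58 ± 0.04, ASF1B, an H3 and H4 chaperone, by -0.63 ± 0.05 and NASP, which holds soluble H3 and H4, by -0.59 ± 0.05 (limma adjusted p of 5.82e-08, 1.15e-06 and 1.72e-06). With VAV1, 7 were higher, close to the share of all genes (23.6%), and 4 lower. Among them were UBN1, a subunit of the HIRA complex that deposits the replacement H3 (-0.53 ± 0.06, limma adjusted p = 5.31e-06), and NAP1L1, a chaperone of H2A and H2B (0.35 ± 0.04, limma adjusted p = 1.40e-05). With RAC1P29S, 2 were higher and 4 lower, the latter close to the share of all genes (15.5%). The lower ones include the chaperone gene HJURP (-0.36 ± 0.06, limma adjusted p = 0.000861) and its client CENPA, the centromeric H3 (-0.37 ± 0.09, limma adjusted p = 0.00771). SLBP and CHAF1A each stand on more than 1 of the lists.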

How the data were processed

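Total RNA of 15 A375 libraries was sequenced after a TruSeq preparation, per the labels' protocols. The deposited values are on a log2 scale, log2(normalized count + 1), 1 for each gene symbol and library. The submitters' processing notes name kallisto, DESeq2 and GRCh38, with versions, settings and annotation release not given in the sources used here. Kallisto estimates are not whole reads, so depth is unknown and no count-based test or counting interval is given. limma 3.58.1 in R 4.3.3 was fitted to the log2 values: 1 mean per group, empirical Bayes with trend and robust estimation, two-sided, Benjamini-Hochberg over all genes tested, threshold 0.05. The 9 vehicle and saracatinib libraries were fitted together, the 6 untreated ones together, and all 15 for the comparison of the VAV1 and RAC1P29S effects. Groups followed the sample titles. Replicate numbers do not pair libraries (residual correlations -0.0547 to 0.0125). Errors are standard errors on fold changes and standard deviations on levels. Tables came from Python 3.11.15 with pandas 2.3.3 and figures from matplotlib 3.10.9. The fits were also run on simulated data, with normal noise around the mean of each gene on the log2 scale. The simulation did not model zeros or the split between copies, so it does not bear on the calls of such members.

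Members, lists and rules were chosen with earlier results of these data known. All variants are named, and replication-dependent members are named if among the 8 highest or 8 lowest called fold changes of a comparison or the 8 highest levels of an experiment. From each list up to 4 genes with the smallest adjusted p may be named; some others near the threshold were chosen after their values were seen. Alternatives were 2 filters, 3 scalings, a pseudocount of 16, fewer libraries in the fit, a replicate block and leaving out each library.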

Additional observations from a re-analysis of the deposited data

Results flagged for a closer look

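The effects of VAV1 and RAC1P29S, each against its own empty vector, differed for 5 histone genes in a direct test of the difference with limma. H2AFZ differed by 0.60 on the log2 scale, with 0.59 for VAV1 and -0.01 for RAC1P29S. H3F3A differed by 0.28, with -0.12 for VAV1 and -0.40 for RAC1P29S. HIST1H1C differed by -0.79, with 0.48 for VAV1 and 1.27 for RAC1P29S. H2AFY differed by 0.21, with 0.27 for VAV1 and 0.06 for RAC1P29S. H3F3B differed by 0.24, with 0.31 for VAV1 and 0.07 for RAC1P29S. The 2 experiments also differ in vehicle, and the part of that difference in these values was not tested.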

How the results depend on the processing

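No called fold change of a member changed sign under any alternative tried. When 1 library was left out, 62 of 726 member results lost a call and 5 gained a call. None did under the pseudocount of 16 or no filter. None did under summed copies either, with 70 results in place of 79. The single copies are absent there, so their calls could not be lost. The member results include every tested variant, so many had no call to lose. With the replicate block 8 of 79 lost a call, again with uncalled variants among the 79. The block gave 0 in place of 1 variant lower with VAV1 and 3 in place of 6 replication-dependent members higher with saracatinib (HIST2H3A and HIST2H3C counted in all of these), and moved no other count of calls by over 1.5 times. The numbers do not pair libraries. The fit of only the 2 groups compared also gave 0 variants lower with VAV1. A filter of 50 normalized counts gave 3 replication-dependent members higher with saracatinib and 8 for saracatinib against the empty vector, with fewer members tested, and counting only members at 10 or more in all 6 libraries (chosen after seeing the data) gave the same 3 and 8. Total-count scaling and quantile normalization gave 2 variants higher with saracatinib, H3F3A being added. The filter of 50, recomputed median-of-ratios and total-count scaling gave 2 variants lower with RAC1P29S, H2AFV being added. The log2 ratio of summed levels under quantile normalization was 0.17 for variants with VAV1, 0.32 for replication-dependent members and -0.10 for variants with saracatinib, and 0.067 for variants of saracatinib against the empty vector, in place of 0.24, 0.42, -0.21 and 0.03, and H3F3B lost its call with saracatinib (limma adjusted p = 0.255). Where not shown by the alternative's construction, the cause was not tested. Without 1 library, variants lower with VAV1 ranged from 0 to 1, replication-dependent members with saracatinib from 2 to 7 higher and 0 to 1 lower, those against the empty vector from 8 to 13, variants higher there from 1 to 3, and with RAC1P29S replication-dependent members higher from 2 to 5 and variants lower from 1 to 2. The other counts stayed within 1.5 times. Most replication-dependent members lie near or under 10 normalized counts, where changes are hard to detect.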
